A study of Sus scrofa with 12 samples.

Results

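The genes described here encode the proteasome, the particle that degrades proteins tagged with ubiquitin. They were taken as all protein-coding genes of the Sscrofa11.1 pig annotation whose symbol starts with PSMA, PSMB, PSMC, PSMD, PSME, PSMF or PSMG, which gave 49 of 19550 protein-coding genes placed on chromosomes. By symbol they were grouped into 8 alpha and 8 beta genes of the 20S core and 3 beta genes of the immunoproteasome. The other groups were 6 ATPase and 14 non-ATPase genes of the 19S cap, 5 activator or inhibitor genes and 4 assembly chaperones of the core. The last one, PSMC3IP, matched by its symbol only, since it encodes a meiotic recombination factor and not a proteasome subunit.

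The tissue was the longissimus dorsi, a long back muscle, of male piglets 2 weeks old from Large White (LW), a commercial lean breed, and Meishan (MS), a local Chinese breed. The sources used here name no engineered allele and no treatment. H3K27ac BL-HiChIP, which captures pairs of DNA segments that lie close together where at least one carries the active-chromatin mark H3K27ac, and GRID-seq, which ligates RNA to the DNA it touches, gave 2 libraries per breed each. Whether the replicates of a breed came from different animals is not given in the sources used here, so breed and animal cannot be told apart, and p-values measure only the spread between these libraries. The question was which chromatin loops and chromatin-bound RNAs these genes had, and whether they differed between breeds.

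In the 26S proteasome, alpha and beta rings form a barrel with the cutting sites inside, and the 19S cap binds ubiquitin-tagged proteins, unfolds them with its ATPase ring and feeds them into the barrel. Interferon induces beta subunits that replace the standard ones in the immunoproteasome, as well as the PA28 activator, and both favour peptides for display to T cells. In skeletal muscle the ubiquitin-proteasome system is the main route by which myofibrillar protein is broken down during wasting. Cells use the proteasome at all times, so its genes are active in nearly every tissue.

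The loop lists held 57028 and 43282 loops in LW against 45061 and 33353 in MS, and the RNA lists rested on 7172517 to 9943666 RNA reads of 519 to 681 RNAs per library. All 10 muscle fibre markers, among them ACTA1 and CKM, had a loop in each of the 4 libraries. Of 5 immune markers 1, CD68, had a loop in all 4 libraries, and PTPRC, CD3E and ITGAM had none in any. Of 5 adipocyte markers 1, CIDEC, had a loop in all 4 libraries, and ADIPOQ, LEP and PLIN1 had none in any. Of 5 endothelial markers 3, and of 5 fibroblast markers 2, had a loop in all 4 libraries. The tissue was profiled whole, so a change in the share of a cell type and a change within its cells cannot be told apart.

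A loop was assigned to a gene when one of its 5-kb anchors lay within 1 kb of either gene end. By this rule 34 and 33 proteasome genes had a loop in the LW libraries, and 31 and 28 had one in the MS libraries (replicate 1 first). These were 69.4%, 67.3%, 63.3% and 57.1% of the 49 genes, against 52.9%, 46.6%, 48.4% and 42.0% of all protein-coding genes. Proteasome genes were thus above the genome-wide share in each library, and in both sets the share was highest in LW replicate 1 and lowest in MS replicate 2. In all 4 libraries 22 proteasome genes had a loop (44.9%, against 31.7% of all protein-coding genes), and 9 had none in any library (18.4%, against 37.4%).

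**Figure D1:**
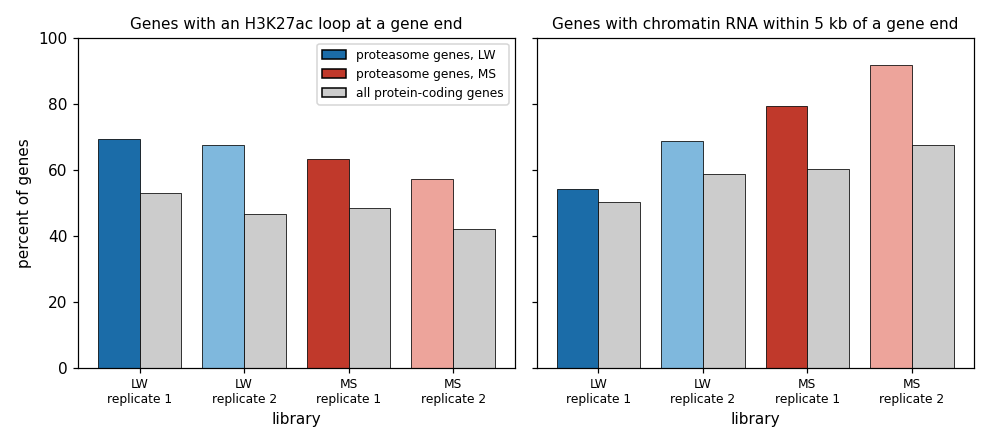
Percent of genes with an H3K27ac loop at a gene end (left) and with a chromatin RNA within 5 kb of a gene end (right) in each of 4 libraries, for proteasome genes (blue LW, red MS) and all protein-coding genes (grey). On the left the proteasome bars go from 69.4% to 57.1% and on the right from 54.2% to 91.7%, each above its grey bar.

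Other housekeeping gene sets of the same kind were near these values. Of 80 cytosolic ribosomal protein genes 38.8% had a loop in all 4 libraries and 11.3% in none, and of 68 nuclear oxidative phosphorylation genes 47.1% and 11.8%. A 5-kb bin with a proteasome gene end often held another gene as well: 67.3% of proteasome genes shared their bins with the end of another protein-coding gene, against 48.1% of all protein-coding genes, and loops of such a bin cannot be assigned to one of the genes. How far this sharing bears on the number of looped genes was not tested.

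The loops of proteasome genes were mostly local. Their median length was 52.5 and 40.0 kb in LW and 50.0 and 40.0 kb in MS, against 60, 50, 60 and 50 kb for all protein-coding genes. Loops over 100 kb made up 23.1%, 19.05%, 16.9% and 13.4% of proteasome gene loops and 29.8% to 34.1% of those of all genes. Of 222 distinct loops at proteasome genes, 149 were listed in 1 library only (67.1%, against 65.4% over all protein-coding genes) and 10 in all 4 (4.50%, against 4.73%).

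Those 10 loops, singled out after their values were seen, belonged to 8 genes: PSMA2, PSMA3, PSMA5, PSMA6, PSMA7, PSMD2, PSMD13 and PSME1. Their strength is given as −log10 of the false discovery rate (FDR) that the loop caller attached to each loop, for LW first and then MS, with replicate 1 before replicate 2. The strongest, with 19.5, 65.8, 15.4 and 78.5, was assigned to PSME1 and reached a bin of DCAF11 15.0 kb away. Its near bin lay within 1 kb of the end of PSME1 without holding it. By the same rule that bin was also assigned to ends of DCAF11 and FITM1, so this contact cannot be assigned to PSME1 alone. A second loop of PSME1 reached 80.0 kb to a bin with the ends of CHMP4A, MDP1 and NEDD8, a ubiquitin-like modifier, with 4.64, 2.55, 4.36 and 5.14. The first was far stronger in both libraries numbered 2 than in both numbered 1, in either breed, and the second was weak throughout.

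PSMA6 was joined over 95.0 kb to NFKBIA, which encodes the NF-kappaB inhibitor that the proteasome degrades, with 9.05, 20.8, 13.0 and 14.1. PSMA3 was joined over 45.0 kb to ARID4A with 15.1, 28.8, 12.5 and 20.1. PSMD13 had a loop of 5.00 kb to the neighbouring bin of COX8H, a cytochrome oxidase subunit gene, with 6.18, 44.3, 5.69 and 18.7. In these 3 loops the libraries of both breeds overlapped. Weaker loops in all 4 libraries joined PSMD2 to DVL3 over 110 kb, with 5.52, 2.65, 4.44 and 6.79, and PSMA7 to TAF4 over 40.0 kb, with 4.86, 2.40, 8.50 and 2.16. The others were a loop of PSMA5 over 120 kb to a bin with no protein-coding gene end, one of PSMA6 over 10.0 kb to such a bin, and one of 5.00 kb with both anchors at PSMA2.

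To compare genes, the strengths of all loops at a gene were added up within each library, and this sum is called its loop score. Among the genes with a loop, the median score of proteasome genes was 14.5 and 7.68 in LW against 12.5 and 8.51 in MS, against 11.7, 10.9, 9.81 and 10.3 for all protein-coding genes with a loop. The proteasome median was the higher one in both libraries numbered 1 and the lower one in both numbered 2.

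**Figure D2:**
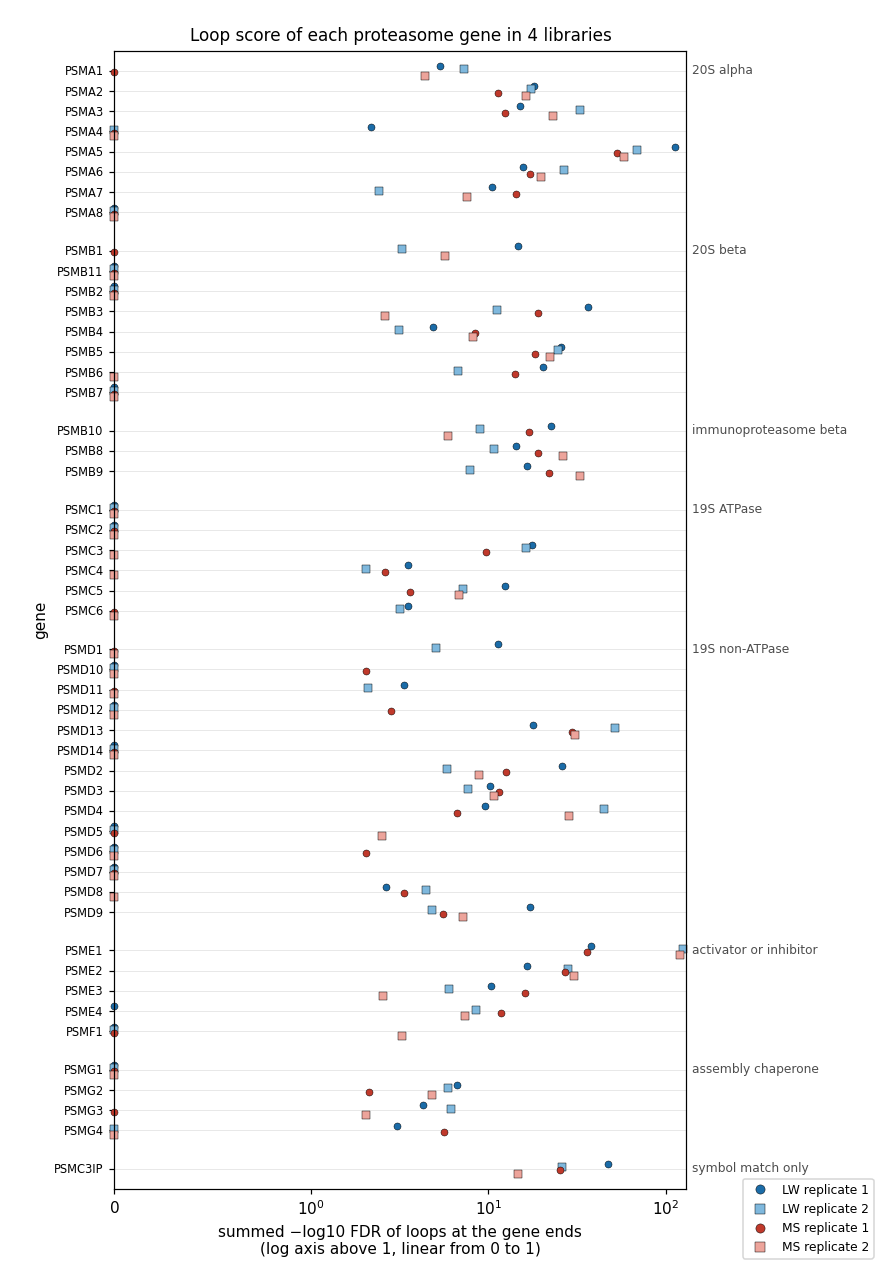
Loop score of each of the 49 genes (rows, by class) in each library, as summed −log10 FDR on an axis that is linear from 0 to 1 and logarithmic above. Points at the left edge are genes with no listed loop; PSME1 in both libraries numbered 2 and PSMA5 in LW replicate 1 are the points above 100.

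The alpha subunits form the outer rings of the barrel and gate its entrance. Of the 8 genes 5 had a loop in all 4 libraries and 1 in none. PSMA5 (chr4:110695429-110717308) had the highest score of the class, 112 and 68.9 in LW against 53.1 and 57.9 in MS, so that both LW libraries lay above both MS libraries, although the difference did not pass the test (adjusted p = 1.00 by limma). PSMA3 (chr1:187342231-187371149) came next with 15.1 and 33.0 in LW against 12.5 and 23.2 in MS, and its libraries overlapped. PSMA4 had a loop in 1 library, with a score of 2.17 in LW replicate 1. PSMA8, the testis-restricted alpha subunit, had none.

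The beta subunits form the inner rings and hold the cutting sites. Of the 8 standard or tissue-restricted beta genes 3 had a loop in all 4 libraries and 3 had none: PSMB2, PSMB7, which encodes a catalytic subunit, and PSMB11, the thymus-specific one. PSMB5 (chr7:76014576-76021922), which encodes the subunit with chymotrypsin-like activity, scored 25.6 and 24.7 in LW against 18.3 and 22.2 in MS. PSMB11 lies less than 10 kb from PSMB5 on the same chromosome and had no loop. PSMB3 (chr12:23347060-23357616) scored 36.6 and 11.2 in LW against 18.97 and 2.62 in MS, with more in the library numbered 1 of each breed.

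The 3 immunoproteasome genes all had loops in all 4 libraries. PSMB8 (chr7:25058456-25061666) and PSMB9 (chr7:25072133-25077508) lie beside the peptide transporter genes TAP1 and TAP2, within the major histocompatibility region of the pig. A loop of 15.0 kb joined the bins of PSMB8 and PSMB9 in both libraries numbered 1, with strengths of 10.5 in LW against 13.5 in MS, and one of 10.0 kb in both numbered 2, with 7.88 in LW against 18.5 in MS. Ends of TAP1 or TAP2 lay in the same bins, so these contacts belong to the block and not to a single pair of genes.

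PSMB9 scored 16.5 and 7.88 in LW against 21.9 and 32.8 in MS. PSMB8 scored 14.4 and 10.7 in LW against 19.1 and 26.5 in MS. In both genes each MS library was above each LW library, with log2 fold changes of -1.40 ± 0.78 (SE) and -1.08 ± 0.76 (SE) for LW minus MS (2 libraries per breed, limma), and neither passed the test (adjusted p = 1.00 for each). The 2 genes share loops and are not independent of each other. PSMB10 (chr6:28544910-28547609) scored 22.6 and 8.96 in LW against 16.96 and 5.89 in MS, with the libraries of both breeds overlapping.

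The 19S ATPases form the ring that unfolds substrates. Of 6 genes 4 and 4 had a loop in LW (66.7% each), against 3 and 1 in MS (50.0% and 16.7%), beside 52.9%, 46.6%, 48.4% and 42.0% of all protein-coding genes, and only PSMC5 had one in all 4 libraries. PSMC3 (chr2:15185482-15191189) had the highest mean, with 17.5 and 16.2 in LW against 9.64 and 0 in MS. PSMC5 (chr12:15101946-15106326) scored 12.4 and 7.18 in LW against 3.59 and 6.78 in MS. PSMC6 scored 3.54 and 3.16 in LW and 0 in both MS libraries, and PSMC1 and PSMC2 had no loop.

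In PSMC3, PSMC5 and PSMC6 both LW libraries were above both MS libraries, as in 21.1% of all protein-coding genes with a loop in any library. None of the 3 passed the test (adjusted p = 1.00 for each by limma). MS replicate 2, in which 1 of the 6 ATPase genes had a loop, was also the library with the fewest loops listed.

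The genes with PSMD symbols were grouped as non-ATPase genes of the 19S cap, among them scaffold subunits, ubiquitin receptors and the deubiquitinase PSMD14. PSMD5, PSMD9 and PSMD10 in this group encode assembly chaperones of the cap and not parts of the finished one. Of 14 genes 5 had a loop in all 4 libraries and 2 had none, PSMD7 and PSMD14. PSMD13 (chr2:55108-68854) had the highest mean score, 17.8 and 51.6 in LW against 29.6 and 30.8 in MS. PSMD4 (chr4:97994060-98004727), a ubiquitin receptor, scored 9.59 and 44.8 in LW against 6.68 and 28.4 in MS. PSMD4 was thus more than 4 times as high in the library numbered 2 of each breed as in that numbered 1, and the breeds overlapped.

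PSMD1 (chr15:131807594-131912194), a large scaffold subunit of the cap, was the single proteasome gene past the loop threshold. It scored 11.4 and 5.04 in LW and was listed without a loop in both MS libraries, so no fold is given. The LW loops were 5.00 to 120 kb long and none was listed in both LW libraries, and those of LW replicate 1 reached the bins of ARMC9 and HTR2B. PSMD11 (3.32 and 2.10 in LW) was also without a loop in MS and did not pass the test. PSMD5, PSMD6, PSMD10 and PSMD12 each had a loop in 1 MS library only, with scores of 2.04 to 2.80.

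The activators open the barrel from the outside. PSME1 (chr7:75161830-75164531) and PSME2 (chr7:75154570-75157871), which encode the alpha and beta chains of PA28, lie next to each other and were joined by a loop of 10.0 kb in 3 libraries and of 5.00 kb in MS replicate 1. PSME1 scored 38.1 and 125 in LW against 35.9 and 121 in MS. Nearly all of its loops used the bin shared with DCAF11 and FITM1. PSME2 scored 16.5 and 28.1 in LW against 27.1 and 30.6 in MS, and all 4 libraries had a loop to a bin with an end of IRF9, a transcription factor of interferon signalling, LW replicate 1 to one such bin and the other 3 libraries to another. For PSME1 the libraries differed by replicate number by more than 3 times and hardly by breed. PSME4, the nuclear activator PA200, had loops in 3 libraries and PSMF1, an inhibitor, in MS replicate 2 only (3.25).

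The assembly chaperones with PSMG symbols build the core and leave it. PSMG2 (chr6:96879009-96893551) was the only PSMG gene with a loop in all 4 libraries and scored 6.69 and 5.93 in LW against 2.11 and 4.81 in MS. PSMG3 (chr3:1052185-1054716) scored 4.27 and 6.17 in LW against 0 and 2.03 in MS and did not pass the test. PSMG4 had a loop in LW replicate 1 and in MS replicate 1, and PSMG1 had none. These scores were low beside those of the alpha class, whose medians were 12.8, 12.3, 11.9 and 12.0 over its 8 genes against 3.65, 2.97, 1.05 and 1.02 over the 4 chaperones. PSMC3IP, the match by symbol, scored 47.0 and 26.0 in LW against 25.4 and 14.7 in MS.

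The breeds were compared with limma on log2(quantile-normalized score + 1) over the 12247 protein-coding genes with a loop in at least 1 library, 40 of them proteasome genes. The threshold was that of the study, an absolute log2 fold change above 1.5 with an unadjusted p under 0.05. PSMD1 was called higher in LW (adjusted p = 0.865 by limma), 1 of 40 proteasome genes, beside a background of 2.65% of all genes tested. In the direction of MS 0 of 40 were called, beside a background of 2.34%. At an unadjusted p under 0.05 in either direction there was 1 of 40, beside 5.00% of all genes tested. No gene of the genome had an adjusted p under 0.05, the smallest being 0.865, and the number of genes past the threshold was 612 by limma (1100 without LW replicate 1 and 1213 without MS replicate 2) and 168 by DESeq2, with 0 proteasome genes by DESeq2. A count near the background is no result about proteasome genes.

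The median log2 fold change of the 40 proteasome genes was 0.03, against 0.01 over all genes tested. Of the 40, 22 were above 0 and 18 below (55.0% above, against 51.1% of all genes tested). Without normalization the medians were 0.36 and 0.37, and the split of all genes past the threshold went from 325 higher in LW and 287 in MS to 659 and 191, or to 541 and 223 when scores were scaled by the library total. In 12 of the 40 both LW libraries were above both MS libraries, beside 21.1% of all genes tested, and in 4 both MS libraries were above, beside 6.79%. The 4 were PSMB4, PSMB8, PSMB9 and PSMD3. PSMB4 scored 4.84 and 3.14 in LW against 8.45 and 8.21 in MS (log2 fold change -1.29 ± 0.75 SE, 2 libraries per breed, adjusted p = 1.00 by limma), and PSMD3 10.2 and 7.68 in LW against 11.48 and 10.8 in MS. LW had more loops listed than MS at each replicate number, in step with the larger share of genes that stood higher in LW. The call of PSMD1 was lost without MS replicate 1 (adjusted p = 0.893 by limma), and with 2 libraries per breed the smallest p of an exact permutation test is 0.333.

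GRID-seq lists RNAs that touch chromatin and the 1-kb bins they touch. No bin or RNA on the sex chromosomes was listed, so PSMD10 on chromosome X was not measured, and 48 proteasome genes remained among 18722 autosomal protein-coding genes. No RNA of a proteasome gene was itself among the 519 to 681 listed RNAs of any library, in which the lowest listed RNA had 432 to 455 reads. The signal at a gene was the sum over RNAs and bins within 5 kb of a gene end. It therefore describes RNAs of other genes on proteasome genes.

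Some RNA was listed at 26 and 33 of the 48 genes in LW and at 38 and 44 in MS. These were 54.2%, 68.8%, 79.2% and 91.7%, against 50.3%, 58.6%, 60.3% and 67.6% of all protein-coding genes. Each proteasome gene had signal in at least 1 library (10.5% of all protein-coding genes had none), and 20 had it in all 4 (41.7%, against 26.4%). The proteasome share was above the genome-wide share in each library, by little in LW replicate 1 and by most in MS replicate 2. Cytosolic ribosomal protein genes had similar shares, 59.2% and 69.7% in LW against 78.9% and 82.9% in MS, with 48.7% in all 4 libraries. Nuclear oxidative phosphorylation genes had lower ones, 48.5% and 59.1% in LW against 65.2% and 74.2% in MS, with 21.2% in all 4.

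RNAs made on other chromosomes followed the same order. They were listed at 17 and 26 of the 48 genes in LW and at 37 and 43 in MS. These counts were 35.4%, 54.2%, 77.1% and 89.6% of proteasome genes and 36.3%, 43.0%, 54.9% and 61.4% of all protein-coding genes. RNAs from more than 10 kb away on the same chromosome were at 14, 18, 11 and 20 of the 48 genes, with no separation of the breeds. RNA signal came in long runs of bins, with a median of 28 bins per run in each library, so that the bins of a gene are not separate events.

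The RNAs from elsewhere were few. The counts and percents for single RNAs leave out genes on the chromosome of that RNA, such as PSMD14 for TTN. The percents are still of all autosomal genes. ENSSSCG00000048037, made on chromosome 3, was at 4 and 12 proteasome genes in LW and at 21 and 18 in MS. RNA of TTN, the giant sarcomere protein, was at 6 and 8 genes in LW and at 20 and 17 in MS. For both RNAs each MS library was above each LW library. Over all protein-coding genes ENSSSCG00000048037 was at 10.8% and 19.004% in LW against 23.6% and 27.2% in MS. This RNA was thus at more genes in MS across the genome too, and the part this has in its proteasome counts was not tested.

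In percent, TTN RNA was at 12.5% and 16.7% of proteasome genes in LW and 41.7% and 35.4% in MS, and at 13.0%, 12.7%, 23.8% and 20.4% of all protein-coding genes. TTN RNA thus covered more genes in MS across the genome too, with 125715 and 104803 bins listed in LW against 211276 and 172341 in MS, while its reads were lower in MS (697633 and 830738) than in LW (914086 and 1016278). The part that this genome-wide difference in listed bins has in the proteasome counts was not tested. RNA of NEB, another giant muscle protein, went the other way, with 4 and 5 proteasome genes in LW and 0 in both MS libraries. Over all protein-coding genes NEB RNA was at 2.14% and 3.44% in LW against 0.454% and 1.08% in MS, with 11736 and 18247 bins listed in LW against 2950 and 5797 in MS.

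**Figure D3:**
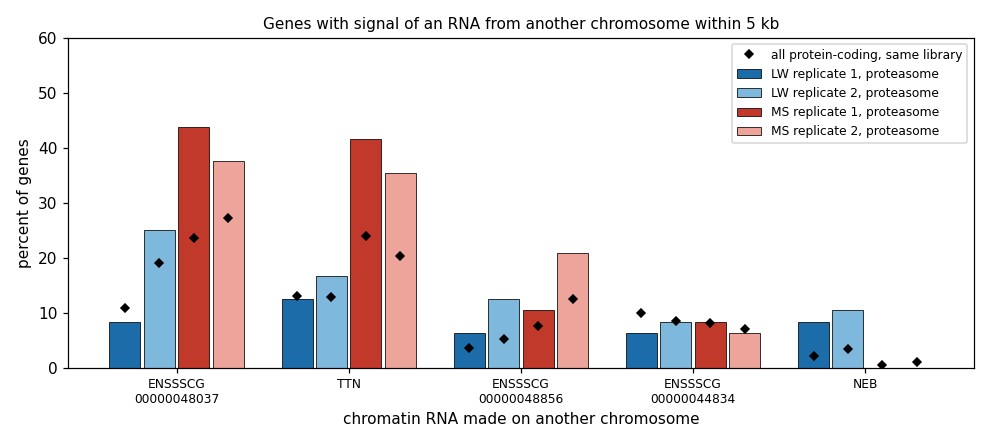
Percent of the 48 autosomal proteasome genes (bars, blue LW, red MS) and of all autosomal protein-coding genes (black diamonds) with signal of 5 of the RNAs made on another chromosome, in each library. For TTN the bars go from 12.5% and 16.7% in LW to 41.7% and 35.4% in MS, while NEB shows no bar in MS.

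TTN RNA was listed at PSMA5 and PSMC5 in all 4 libraries. PSMB2, which had no loop, had TTN RNA in both MS libraries (7.07 and 10.6) and no other RNA in any library. The signals of such RNAs were low. RNAs of other chromosomes made up 1.55% and 2.22% of the signal summed over proteasome genes in LW and 7.999% and 0.846% in MS.

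The largest signals came from RNAs of neighbouring genes. At PSMA5 the RNA of SYPL2, a membrane protein of muscle triads whose gene lies 0.149 kb away, gave 3251 and 3027 in LW against 2359 and 3080 in MS, nearly all of the signal there. At PSMC5 the RNA of the muscle sodium channel gene SCN4A, 54.4 kb away, gave 1498 and 1495 in LW against 1003 in MS replicate 2. In MS replicate 2 alone the RNAs of FTSJ3 and SMARCD2, next to PSMC5, added 69419 and 62703. Neither was in the lists of the other 3 libraries, so the total of 133201 against 142 to 1628 elsewhere rests on RNAs that entered 1 list.

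Such single-list signals recurred. PSMD5 reached 14510 in LW replicate 2 and 0 to 572 in the others, mostly from ENSSSCG00000039972, a neighbouring RNA listed there only (8825), and an unnamed transcript 29.6 kb away (5643). PSMD2 reached 2744 in MS replicate 2 and 25.3 to 125 in the others, from RNA of EIF4G1, again listed in that library only. Steadier signals were that of ENSSSCG00000050060 at PSMA7, with 358 and 446 in LW against 432 and 419 in MS, and the total at PSME4, with 370 and 409 in LW against 436 and 952 in MS.

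**Figure D4:**
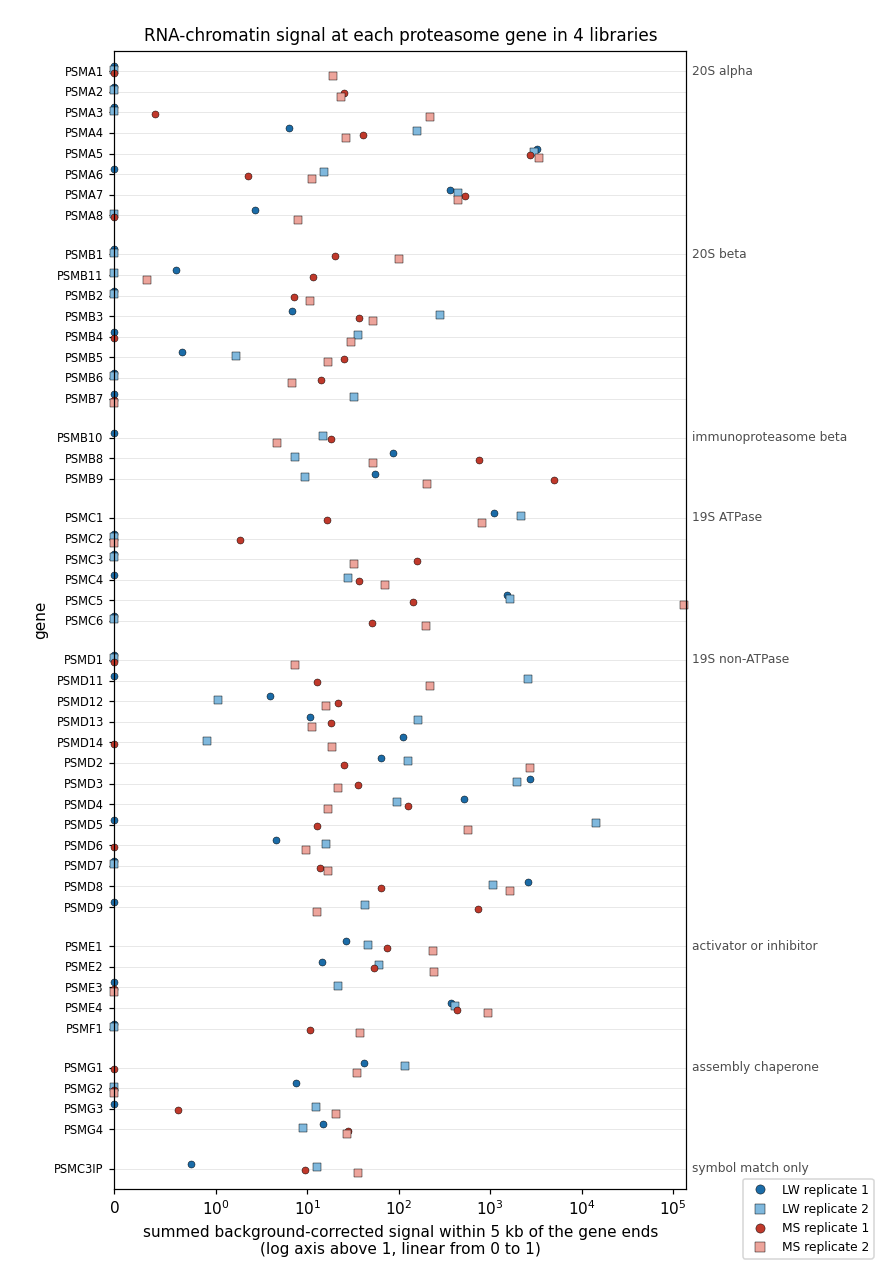
RNA-chromatin signal at each of the 48 autosomal proteasome genes (rows, by class) in each library, summed within 5 kb of the gene ends, on an axis that is linear from 0 to 1 and logarithmic above. PSMA5 sits between 2714 and 3439 in the 4 libraries, PSMC5 reaches 133201 in MS replicate 2 only, and points at the left edge are genes with no listed RNA.

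Between breeds, limma on log2(quantile-normalized signal + 1) covered 16748 genes, 48 of them proteasome genes, with the study's threshold of an absolute log2 fold change above 2 and an unadjusted p under 0.05. PSMD3 was called higher in LW, 1 of 48, beside a background of 7.35% of all genes tested. In MS 7 of 48 were called higher, beside 8.22%. No gene reached an adjusted p under 0.05 by limma. The smallest was 0.116 over all genes and 0.123 among proteasome genes, and 2608 genes had an unadjusted p under 0.05.

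PSMD3 (chr12:22344751-22360550), a cap scaffold subunit, had 2711 and 1946 in LW against 35.7 and 21.8 in MS, a log2 fold change of 5.94 ± 1.26 (SE, 2 libraries per breed, adjusted p = 0.199 by limma). The LW signal was nearly all RNA of the thyroid hormone receptor gene THRA, 48.1 kb away, with 2667 and 1944. THRA was in both LW lists, with 3692 and 3799 reads, and in neither MS list. No loop joined PSMD3 to THRA in LW. The call was lost without LW replicate 1 and without MS replicate 2 (adjusted p = 0.329 and 0.236 by limma), and with the number of pairs of RNA and bin in place of the signal (adjusted p = 0.623).

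The 7 genes called higher in MS were PSMA2, PSMB1, PSMB2, PSMC3, PSMC6, PSMD7 and PSMF1, and all 7 were listed at 0 in both LW libraries, so no folds are given. PSMC6 had the largest difference, with 50.9 and 196 in MS (adjusted p = 0.123 by limma). PSMB1 had 20.04 and 99.8, PSMC3 had 158 and 32.1, and PSMF1 had 10.7 and 37.7. PSMA2 had 25.2 and 23.2, PSMD7 had 13.7 and 16.6, and PSMB2 had 7.07 and 10.6. The levels were low beside those of 2714 to 3439 at PSMA5, and their adjusted p-values by limma ranged from 0.123 to 0.283. The calls of PSMB1, PSMC3 and PSMF1 were lost without LW replicate 1 and without LW replicate 2, where adjusted p-values by limma were 0.244 to 0.434.

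PSMA2, PSMB2, PSMD7 and PSMF1 had only RNAs from other chromosomes in both MS libraries. At the other 3 genes most of the signal in 1 MS library came from an RNA of the same chromosome. PSMC6 in MS replicate 2 had RNA of SAMD4A from the same chromosome (179), PSMB1 that of RORA in MS replicate 2 (58.8), and PSMC3 that of TEAD1 in MS replicate 1 (154). SAMD4A was in both MS lists and in neither LW list, while RORA and TEAD1 were in the lists of all 4 libraries. When RNAs of other chromosomes were left out, an alternative chosen after the data were seen, 3 of 29 proteasome genes tested were called, PSMA4 and PSMD3 higher in LW and PSME2 higher in MS, beside 1437 of 9202 genes. Of the 7, 4 then had no signal left to test, and PSMC6, PSMB1 and PSMC3 were higher in MS without passing the test (adjusted p = 0.562 for each by limma).

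The median log2 fold change of the 48 genes was -0.96, against -0.11 over all genes tested. Of the 48, 34 were below 0 and 14 above it (29.2% above, against 47.6% of all genes tested). Without RNAs of other chromosomes both medians turned positive, to 0.25 and 0.32. In 16 of the 48 both MS libraries were above both LW libraries, beside 21.8% of all genes tested, and in 3 both LW libraries were above, beside 16.7%. Besides PSMD3, the 3 were PSMC1, with 1097 and 2177 in LW against 16.3 and 805 in MS, and PSMG1, with 41.3 and 116 in LW against 0 and 35.3 in MS. FOXN3 RNA, from 576 kb away, was at PSMC1 in both LW libraries (1097 and 662) and in MS replicate 2 (737). It was not in the list of MS replicate 1. RNA of TTC7B, in the list of LW replicate 2 only, gave 1206 there. Neither PSMC1 nor PSMG1 passed the test (adjusted p = 0.561 and 0.602 by limma).

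Among the 5 immunoproteasome and PA28 genes, both MS libraries were above both LW libraries at PSMB9 and PSME1, beside 21.8% of all genes tested. PSMB9 had 55.1 and 9.52 in LW against 5006 and 206 in MS, of which RNA of BRD2, a bromodomain gene 73.2 kb away, gave 4967 in MS replicate 1. PSME1 had 26.1 and 46.5 in LW against 74.2 and 239 in MS (adjusted p = 0.342 by limma), and PSME2 had 14.3 and 60.9 in LW against 53.5 and 245 in MS. PSMB8 had 86.4 and 7.31 in LW against 761 and 52.2 in MS, and PSMB10 0 and 15.0 in LW against 18.0 and 4.63 in MS. At PSME2, PSMB8 and PSMB10 the libraries of both breeds overlapped. None of these 5 passed the test.

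At PSMB9 both assays could be set side by side. A loop of 80.0 kb from its bin to a bin that overlaps the BRD2 gene was listed in both MS libraries, with strengths of 5.96 and 11.8, and in neither LW library. BRD2 RNA was listed in all 4 GRID-seq libraries, with 1402 to 1764 reads, and lay on PSMB9 in MS replicate 1 only. PSMB8 had a loop to the same bin in every library but LW replicate 1, and BRD2 RNA in MS replicate 1 (487). The bin of PSMB9 also held an end of TAP1, where the total signal was 139 and 16.7 in LW against 4555 and 190 in MS. The loop and the RNA signal can thus not be assigned to PSMB9 alone.

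The 9 genes without a loop in any library were not without RNA. PSMC1 had the highest signals of the 9, given above. PSMA8 had 2.69 and 0 in LW against 0 and 7.82 in MS, PSMB11 had 0.603 and 0 in LW against 11.4 and 0.323 in MS, and PSMC2 had signal in MS replicate 1 only (1.84). PSMB7 had 32.6 in LW replicate 2 only and PSMD14 had 110 and 0.909 in LW against 0 and 18.8 in MS. The low signals at PSMA8 and PSMB11, which are restricted to other tissues, were in the range of those at standard subunit genes such as PSMB2.

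Of the other genes of the pathway, 5 lists covered further proteasome components, regulators of proteasome genes, ubiquitin and its activation, substrate delivery and antigen processing. In the loop test 1 of their 30 tested genes was called higher in LW against 0 in MS, beside 2.65% and 2.34% of all genes tested, with a median log2 fold change of -0.06. NFE2L1, the transcription factor that raises proteasome gene expression when the proteasome is impaired, scored 19.6 and 36.4 in LW against 0 and 27.3 in MS. POMP, the core maturation factor, was not found in the annotation by its symbol.

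In the RNA-chromatin test 1 of their 34 tested genes was called higher in LW against 5 in MS, beside 7.35% and 8.22% of all genes tested, with a median log2 fold change of -0.49. SEM1, a small cap subunit, had 342 and 189 in LW and 0 in both MS libraries (adjusted p = 0.147 by limma). RAD23B, a shuttle that brings ubiquitin-tagged proteins to the cap, had 851 and 933 in MS and 0 in both LW libraries (adjusted p = 0.116 by limma), equal to the smallest adjusted p of all genes tested. The other 4 were NPLOC4, NGLY1, IRF1 and NLRC5, the last 2 being activators of immunoproteasome and antigen presentation genes. IRF1 had 11.46 and 55.3 and NLRC5 14.2 and 9.28 in MS, with 0 in both LW libraries. NFE2L1 had signals of 59164 to 72714 in all 4 libraries, and its RNA was itself listed in each, with 1298 to 1664 reads.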

How the data were processed

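The labels gave breed, assay and replicate. For BL-HiChIP the authors removed linkers with ChIA-PET2, aligned with BWA-MEM and called loops per library with FitHiChIP on 5-kb bins. The value deposited for each loop was read as an FDR, that is a p-value after adjustment, since the lists stop just under 0.01. For GRID-seq the authors aligned both ends with Bowtie2 and corrected for background. In the deposited lists, which have no header, each RNA carries a whole number, taken to be its read count, and each pair of RNA and bin a background-corrected signal. The submitters' notes name Trim Galore 0.4.5, Bowtie2 2.2.5, SAMtools 1.9 and MACS2 2.1.2 without their roles. Sequencing depth is not in the loop lists.

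Gene positions came from RefSeq's Sscrofa11.1 table, which gives no strand, so both gene ends were used, and no sequence was printed because none was given. An FDR of exactly 0 (1 loop in LW replicate 2 and 1 in MS replicate 2) was set to 1e-300. Scores were compared in R 4.3.3 with limma 3.58.1, with Benjamini-Hochberg adjustment. The tests were tried on simulated data, with an outcome that is not reported here. A fold change on the log2(value + 1) scale understates that of low genes, and tied ranks in the quantile normalization give some genes listed at 0 a value above it. DESeq2 1.42.0 was an alternative for the rounded score. Gene lists and members were chosen with earlier results of these data known. Genes named were those past a threshold, up to 5 per direction whose libraries did not overlap, the 2 with the highest mean loop score per class, the immunoproteasome and PA28 genes, PSMA8, PSMB11, genes with no loop and, of the pathway lists, those past a threshold, NFE2L1 and POMP. Other genes were named after their values were seen, and some genes are not reported here.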

Additional observations from a re-analysis of the deposited data

How the results depend on the processing

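The loop count of 1 proteasome gene, PSMD1, became 2 with loops of an FDR of at most 0.001, 0 with the number of loops, 0 with DESeq2, 4 with a pseudocount of 0.1 (1 higher in LW and 3 in MS), 3 without normalization, 3 when scaled by the library total and 3 with no filter on low genes. PSMC6 and PSMD11 joined PSMD1 in each of the last 3. Leaving out 1 library at a time gave 2 to 4, and over all protein-coding genes 619 to 1213 in place of 612. Over all genes the count was 112 with the number of loops, 168 with DESeq2 and 1048 with a pseudocount of 0.1. With a replicate block it was 954, and the proteasome count was 1 for loops, again PSMD1, and went from 8 to 7 for RNA, where PSMB2 and PSMD7 were no longer called and PSMB9 was. Same-numbered libraries deviated together with r = 0.35 for loops and -0.01 for RNA over genes, but with 2 pairs, and no label saying what a number stands for, they share only a number. The RNA-chromatin count of 8 became 5 without TTN RNA and ENSSSCG00000044834 and 3 without RNAs of other chromosomes, where all genes gave 1437 in place of 2608. It was 7 to 12 when 1 library was left out. Genes without a loop in any library rose from 9 to 14 at an FDR of at most 0.001, and those looped in all 4 libraries went from 22 to 16. Counts without PSMC3IP, added after seeing the data, were 21 looped in all 4 libraries and 9 in none. The loop difference of PSMD3 turned from -0.65 to 0.0368 on the log2 scale with the number of loops. With no filter, where genes at 0 in every library enter and lower the estimated spread, 60 genes had an adjusted p under 0.05 by limma for loops, 1 of them a proteasome gene (PSMD11), and 597 for RNA, 3 of them proteasome genes (PSMB2, PSMC6 and PSMD7). Without RNAs of other chromosomes there were 266, among them PSMD3. A window around the start alone was not run because the gene table gives no strand, and the planned edgeR test of RNA reads was not run because no proteasome RNA was listed. With 1 library left out of a breed, the other is assumed to vary like the remaining pair. The loop lists give no read depth, and a loop or RNA that is not listed is not shown to be absent.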

Other observations

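The next 2 pathway genes passed no threshold for loops and were chosen after their values were seen. UCHL5, a deubiquitinase of the 19S cap, scored 190 and 133 in LW against 64.4 and 33.9 in MS, both LW libraries above both MS libraries. ZFAND5, a proteasome activator raised in wasting muscle, scored 92.4 and 404 in LW against 70.5 and 282 in MS, a split by replicate number and not by breed. RNA of ZFAND5 was listed in all 4 libraries with 3177 to 4656 reads.

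Where an RNA was listed whose gene lay more than 10 kb and up to 500 kb from a protein-coding gene, the RNA was on that gene more often when a loop of the same breed joined them. Over all protein-coding genes this held for 38.0% and 42.3% of looped pairs in LW and 33.5% and 38.2% in MS, against 13.0%, 16.1%, 9.47% and 12.0% of pairs without a loop. Looped pairs were also closer, with median distances of 69.2 to 75.0 kb against 250 to 254 kb, and the part of distance was not tested. At proteasome genes the looped pairs numbered 6, 6, 4 and 5 in the 4 libraries, with signal in 2, 0, 2 and 0 of them.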
